A study of Homo sapiens with 42 samples.

Results

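Control cells of the human lines THP-1 and HEK293T were compared as they stood in the study's own controls: 3 THP-1 libraries given DMSO, the solvent used for drugs, and 3 HEK293T libraries 48 h after transfection with an eGFP plasmid, which served there as the control for overexpression. These 6 of the series' 42 libraries were chosen by their labels alone, and no measured value entered the choice. The study as a whole dealt with RNA polymerase III factors (POLR3G, POLR3GL and MAF1) in HEK293T and with drugs in THP-1. Another 9 HEK293T control libraries were used only to see how far a value rested on the eGFP cells: 3 with a scrambled antisense oligonucleotide at 200 nM, 3 with a control siRNA at 200 nM and 3 with a control siRNA at 25 nM. Both lines came from ATCC. HEK293T cells grew in high-glucose DMEM at passages 10 to 25 and the plasmid went in with Lipofectamine 3000. THP-1 cells grew in RPMI-1640 at passages 10 to 15, and the labels used here give no time for the DMSO. Line, medium, transfection and DMSO changed together, so a difference between the groups cannot be told apart from the handling of each line. The labels do not say that replicates were separate cultures, and the p-values then measure only the spread between these libraries.

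THP-1 is a line from an acute monocytic leukaemia that grows in suspension, carries a fusion of KMT2A with MLLT3, and is widely used as a model of monocytes. HEK293T derives from embryonic kidney cells transformed with adenoviral genes, with the large T antigen of a polyomavirus added; it grows attached, takes up plasmids readily, and both viral proteins bind RB and p53 pathway members. Its cell of origin has been discussed as kidney, adrenal or neuronal. Monocyte identity rests on a small set of transcription factors, above all PU.1 (encoded by SPI1) with the C/EBP and RUNX factors, which act on genes for granule proteins, receptors and the blood-cell versions of signalling and cytoskeletal proteins.

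The libraries held 37771506 to 43952098 estimated read pairs each, of which 6.37 to 6.78% fell on transcripts that could not be matched to a gene and were left out. Levels are given as TPM, a share of all transcripts that is corrected for transcript length, so that genes can be set beside each other. Fold changes are log2 ratios of THP-1 over HEK293T from edgeR's quasi-likelihood test on summed counts, with their standard error (SE) and an adjusted p over all 16428 genes tested. Of these, 14526 were called at an adjusted p under 0.05, which is 88.4% of the genes tested: 7101 were higher in THP-1 (43.2%) and 7425 in HEK293T (45.2%). A call alone therefore separates little, and a stricter call of at least 8-fold was used to describe gene groups. It took in 1443 genes higher in THP-1 (8.78%) and 1944 higher in HEK293T (11.8%), or 20.6% of genes in all. The counts given below for each gene list are to be read beside these shares over all genes. The median log2 fold change over all genes was -0.03 and the median absolute log2 fold change 1.02. Scaling by library totals alone moved the median of all genes by -0.37 on the log2 scale, and the share of calls that were higher in THP-1 from 48.9 to 37.1%; fold changes are reported with edgeR's TMM scaling. TPM carries no such factor and is set by the lengths of the transcripts counted for a gene, so a ratio of TPM values can lie above or below the fitted fold change of counts.

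The marker genes named for the comparison all separated the lines, and all but 1 were higher in THP-1. LYZ encodes lysozyme, the antibacterial enzyme of phagocytes. Its level was 5492, 5549 and 4987 TPM in the THP-1 libraries and 2.66, 2.32 and 2.57 TPM in the HEK293T libraries, a log2 fold change of 11.39 (SE 0.08; adjusted p = 1.4e-14, edgeR). SPI1 stood at 203, 196 and 207 TPM against 0.258, 0.403 and 0.295 TPM, a log2 fold change of 10.13 (SE 0.06). PTPRC, the leukocyte phosphatase CD45, stood at 163, 157 and 142 TPM against 0.118, 0.0943 and 0.0361 TPM, a log2 fold change of 12.55 (SE 0.17). For each of the 3 genes the lowest THP-1 library was far above the highest HEK293T library. CD14 is a co-receptor for lipopolysaccharide and the usual surface marker of monocytes. It was lower in THP-1 than those 3 genes, at 19.7, 21.3 and 18.99 TPM. In HEK293T it stood at 0.266, 0.222 and 0.155 TPM (log2 fold change 6.70, SE 0.14). HOXA5, a homeobox gene, went the other way. It stood at 2.36, 3.17 and 2.99 TPM in THP-1 and at 52.6, 49.8 and 56.3 TPM in HEK293T, a log2 fold change of -3.79 (SE 0.09), so in these libraries it marked HEK293T.

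**Figure D1:**
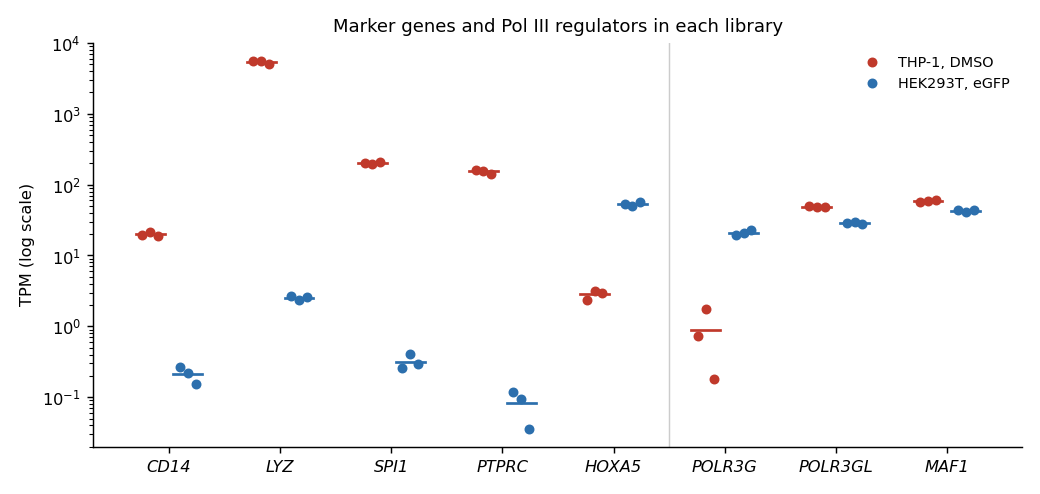
Level of the 5 marker genes and of POLR3G, POLR3GL and MAF1 in each library, in TPM on a log axis, with 1 point per library and a bar at the group mean. CD14, LYZ, SPI1 and PTPRC lie above all HEK293T libraries in all 3 THP-1 libraries, while HOXA5 and POLR3G lie below them.

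Many of the largest differences were for genes with 0 reads in the other line. Among protein-coding genes, the largest rises in THP-1 were for CTSG, RNASE2, CCR2, S100A9, MNDA, ELANE, XAGE1A, NCF4, TRPM2 and CD93. CTSG, cathepsin G of azurophil granules, stood at 1357, 1291 and 1321 TPM in THP-1 and had no read in any HEK293T library, so it was at least 12256-fold higher when HEK293T was set at a floor of 3 reads per library. On the same floor RNASE2, a granule ribonuclease (1177 ± 19.7 TPM; mean ± SD, n = 3), was at least 6623-fold higher, and CCR2, the receptor for the chemokine CCL2 (134 ± 7.15 TPM), at least 5815-fold higher. S100A9, a partner in calprotectin, reached 868 ± 38.8 TPM, and the other partner S100A8 reached 535 ± 23.2 TPM; both had 0 reads in HEK293T. ELANE, neutrophil elastase, stood at 564 ± 8.10 TPM against 0 reads. CD93 had 57194 reads in THP-1 and 1 read in HEK293T, a ratio of 73862 with a counting interval of 13256 to 2917440. XAGE1A, a cancer-testis gene at 696 ± 1.85 TPM against 0 reads, has near-identical copies, and its reads cannot be assigned to 1 copy with certainty. In all, 221 of the 1443 genes that were at least 8-fold higher in THP-1 had 0 reads in HEK293T.

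The largest falls were for IRS4, NEFM, LIN28B, SLC6A15, GJA1, NEFL, HOXD13, KLHL9, ABLIM1 and TUBB2B, and all 10 had 0 reads in every THP-1 library. IRS4, an adaptor of insulin receptor signalling known for its high level in this line, stood at 230, 232 and 240 TPM in HEK293T and was at least 10519-fold lower in THP-1. NEFM and NEFL, 2 of the neurofilament subunits, stood at 89.8 ± 3.84 and 59.6 ± 1.61 TPM and were at least 3029-fold and at least 1495-fold lower. LIN28B, which blocks maturation of the let-7 microRNAs, stood at 52.5 ± 0.738 TPM and was at least 2014-fold lower. GJA1, the gap-junction protein connexin 43, stood at 75.1 ± 3.06 TPM and TUBB2B, a tubulin of developing neurons, at 88.3 ± 0.969 TPM. Of the 1944 genes at least 8-fold higher in HEK293T, 375 had 0 reads in THP-1.

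Ranked by level instead of by fold, the THP-1 side was led by CAP1, which binds actin monomers and helps to recycle them, at 6604, 6833 and 6345 TPM against 142, 136 and 141 TPM in HEK293T (log2 fold change 6.08, SE 0.05). The next were YBX1 (5951 ± 78.5 TPM), FTL, the ferritin light chain (5743 ± 59.4 TPM against 249 ± 12.1 TPM), TPT1 (5639 ± 92.4 TPM), LYZ and PPT1, a lysosomal thioesterase (4449 ± 142 TPM against 78.7 ± 0.545 TPM). TMSB4X, the actin-sequestering thymosin, CA2, a carbonic anhydrase, LGALS1, a galectin, and B2M, the light chain of class I molecules, completed the 10, at 4123, 3676, 2911 and 2626 TPM. LGALS1 had the largest fold among these 4, with 6.83 ± 0.163 TPM in HEK293T and a log2 fold change of 9.21 (SE 0.05).

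On the HEK293T side the levels were lower. CKB, brain-type creatine kinase, stood at 634, 635 and 667 TPM against 12.2, 12.1 and 11.9 TPM (log2 fold change -5.48, SE 0.04). PLS3, the plastin of non-blood cells, stood at 627 ± 14.8 TPM against 2.97 ± 0.312 TPM and BEX3 at 604 ± 14.1 against 53.1 ± 1.08 TPM. UCHL1, a neuronal deubiquitinase, stood at 266 ± 11.4 TPM; it had 19665 reads in HEK293T and 1 read in THP-1, a ratio of 15227 with a counting interval of 2733 to 601479. CBS, FKBP10, AMOT and IRS4 followed at 265, 264, 253 and 234 TPM. RPL9 and HSPA1B, also among the highest 10, are limited by how their reads were assigned or by the handling of the cells. RPL9 appeared at 1774 ± 52.7 TPM in HEK293T against 95.1 ± 4.25 TPM in THP-1, but its near-identical copy RPL9P9 took 127705 reads in THP-1 and 505 in HEK293T, and the 2 copies summed to 2573 ± 182 TPM in THP-1 and 1786 ± 52.0 TPM in HEK293T. HSPA1B, an inducible HSP70 gene, stood at 1373 ± 20.8 TPM in HEK293T. With its near-identical copy HSPA1A it summed to 2385 ± 27.0 CPM, reads scaled to the library's size, in the eGFP libraries, to 405 ± 28.7, 655 ± 13.48 and 510 ± 24.2 CPM in the HEK293T libraries with scrambled oligonucleotide, control siRNA at 200 nM and control siRNA at 25 nM, and to 123 ± 2.74 CPM in THP-1. The eGFP libraries stood far above the other HEK293T controls for this pair, and all 4 HEK293T groups were above THP-1.

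**Figure D2:**
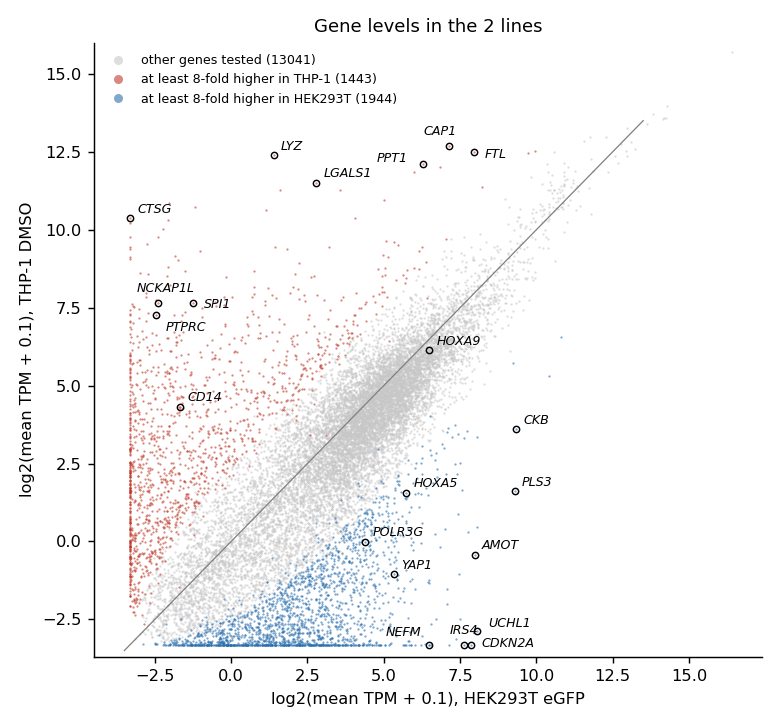
Mean level of each tested gene in HEK293T (x axis) and THP-1 (y axis), as log2 of TPM plus 0.1, with named genes circled and genes at least 8-fold apart in colour. Genes such as CTSG on the left edge and IRS4 or CDKN2A on the lower edge were listed at 0 in 1 line, and HOXA9 lies near the diagonal.

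Monocyte and granule genes formed the clearest block. Of 30 listed genes 29 were tested, and all 29 were higher in THP-1, 28 of them by at least 8-fold, with a median log2 fold change of 9.92 (9.90 with genes at 0 reads set to their bound) beside -0.03 over all genes. Their summed level was 14788 to 15566 TPM in the THP-1 libraries and 43.2 to 48.2 TPM in HEK293T. The azurophil granule proteases and their inactive relative AZU1 were abundant: AZU1 stood at 1591 ± 38.7 TPM and PRTN3, proteinase 3, at 252 ± 10.7 TPM. The granule gene MPO, which encodes the myeloperoxidase of the same granules, was at only 1.18, 1.19 and 1.21 TPM. FCER1G, the shared signalling chain of Fc receptors, stood at 1704 ± 40.1 TPM against 0.336 ± 0.284 TPM, a log2 fold change of 12.70 (SE 0.09), and TYROBP, the adaptor DAP12, had 8578 reads against 1. Members that did not follow were VCAN, a proteoglycan of classical monocytes, at 53.5 ± 1.48 against 29.96 ± 2.51 TPM (log2 fold change 1.21, SE 0.04), and FCN1, a ficolin of blood monocytes, which was near 0 in both lines (0.0315 and 0.0238 TPM) and was not tested. Granule genes that normal cells use at the promyelocyte stage and receptors of monocytes were thus both high in THP-1, with MPO and FCN1 low.

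Of 28 blood cell transcription factors 25 were tested: 22 were higher in THP-1, 17 of them by at least 8-fold, 3 were higher in HEK293T, and the median log2 fold change was 4.61. The highest in THP-1 were IRF8 (225 ± 8.25 TPM against 2.65 ± 0.507 TPM), a factor of the monocyte branch, LMO2 (220 ± 0.729 against 4.61 ± 0.212 TPM), and CEBPA (212 ± 2.92 against 12.0 ± 0.197 TPM), which opens the granulocyte and monocyte path. MYB, a factor of progenitors, stood at 141 ± 4.02 TPM and RUNX1 at 86.7 ± 3.84 TPM, against 5.63 ± 0.470 and 2.73 ± 0.522 TPM. IRF5 stood at 84.3 TPM with 0 reads in HEK293T. The 3 that were higher in HEK293T included IKZF2 (log2 fold change -1.66) and GATA2 (-1.46, SE 0.07; 17.3 ± 0.776 against 4.56 ± 0.484 TPM). GATA1, the erythroid factor, had 0 reads in both lines. CEBPB, a factor of differentiated macrophages, stood at 24.4 against 18.6 TPM (log2 fold change 0.86), but its fold change was -0.045 against the scrambled oligonucleotide libraries and -0.039 against control siRNA at 25 nM.

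Of 35 pan-haematopoietic signalling and cytoskeletal genes, the 34 tested were all higher in THP-1, 32 by at least 8-fold, with a median log2 fold change of 8.56. LAPTM5, a lysosomal protein of blood cells, stood at 749, 779 and 730 TPM against 0.0778, 0.0197 and 0.0450 TPM, a log2 fold change of 14.32 (SE 0.10). LCP1, the leukocyte plastin, stood at 695 ± 34.3 against 9.22 ± 0.382 TPM and ARHGDIB, an inhibitor of small GTPases in blood cells, at 633 ± 12.7 against 0.397 ± 0.151 TPM. The kinases were less even: LYN was 12.4 TPM in HEK293T already (41.2 in THP-1; log2 fold change 2.32) and SYK 8.29 TPM (94.3 in THP-1; 4.13), whereas BTK stood at 53.3 against 0.245 TPM (7.87). LYN and PLCG2 (log2 fold change 2.52) were the tested members that stayed under 8-fold.

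The promoters of these genes were searched on either strand for GAGGAAGT, the purine-rich core that PU.1 binds. The sequences were the 250 bases before each gene's start in RefSeq (GRCh38.p14). Of the 60 genes of the monocyte and pan-haematopoietic lists that were at least 8-fold higher in THP-1, 47 had an entry and 9 held the motif (19.15%). The share was 5.96% (55 of 923) over all genes at least 8-fold higher in THP-1, 1.45% (20 of 1376) over those at least 8-fold higher in HEK293T, 2.11% (257 of 12159) over all genes tested, and 2.13% (582 of 27305) over all promoters. For the shorter core GAGGAA, which the longer motif contains, the shares in the same order were 68.09% (32 of 47), 34.45% (318 of 923), 22.38% (308 of 1376), 23.09% (2807 of 12159) and 23.41% (6393 of 27305). As a ratio to the share over all genes tested, that of the lists was lower for this core than for GAGGAAGT. The shares are a description and were not tested, and a match is not shown to be a bound site. The windows of 30 bases with the motif, shown in the direction of the gene with the motif in capitals, are given for 4 of the 9 genes, with distances from 11 to 88 bases before the start.
VAV1 (chr19:6772678-6772707, plus strand): gacagttacaggcaaagaaGAGGAAGTggt
INPP5D (chr2:233060268-233060297, plus strand): gtttctgtaatGAGGAAGTtctccgcagct
LCP2 (chr5:170297839-170297868, minus strand): agagcccagcaGAGGAAGTggtaaaggaaa
PRTN3 (chr19:840900-840929, plus strand): caaggcaaaagGAGGAAGTggggacccagc
VAV1 is the blood-cell exchange factor for RAC proteins, INPP5D the phosphatase SHIP, and LCP2 an adaptor in receptor signalling. Others with the motif included LCP1, LST1, BTK and PIK3CG. Their levels in THP-1 were 61.1 TPM for VAV1, 127 TPM for INPP5D and 81.0 TPM for LCP2, against 4.23, 1.32 and 0.0939 TPM in HEK293T. The windows of CD14 and PTPRC held no GAGGAAGT, that of CD14 held GAGGAA, and LYZ and SPI1 had no entry.

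The phagocyte NADPH oxidase, which makes superoxide for killing of microbes, showed the pattern at the level of a complex. All 6 genes were higher in THP-1, 5 by at least 8-fold. The membrane subunit CYBB stood at 60.8 ± 2.31 against 0.408 ± 0.129 TPM, and the cytosolic subunit NCF4 at 156 ± 2.34 TPM, with 0 reads in HEK293T. RAC2, the blood-cell RAC of the complex, stood at 409, 407 and 404 TPM against 0.520, 0.223 and 0 TPM. The exception in size was CYBA, which also partners oxidases of other cells: 553 ± 10.1 against 132 ± 4.69 TPM, a log2 fold change of 2.49 (SE 0.03).

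Many blood-cell proteins have a closely related gene used in other tissues, and 26 such pairs were set out as the log2 ratio of the blood member to the wider member within each library (TPM plus 0.1). The ratio was higher in all 3 THP-1 libraries than in any HEK293T library in 26 of 26 pairs, which were chosen with earlier results of these data known. Many blood members were also in the pan-haematopoietic list, and 88.4% of all genes tested were called between the lines. The count thus describes these pairs and is not a further result. The blood member was above the wider one in 24 pairs in THP-1 and in 2 in HEK293T. The blood members were at least 8-fold higher in THP-1 in 23 pairs, beside 8.78% of all genes tested. Their median log2 fold change was 7.50. The wider members differed less, with a median of -0.49 (25 tested); 14 were within 2-fold, and 4 were at least 8-fold higher in HEK293T: NCKAP1, DOCK1, PLS3 and FERMT2. In these 4 pairs both members passed 8-fold, in opposite directions. NCKAP1L and NCKAP1 are alternative subunits of the WAVE complex, which turns on actin branching. NCKAP1L stood at 204, 205 and 194 TPM in THP-1 and at 0.103, 0.0814 and 0.0840 TPM in HEK293T, whereas NCKAP1 stood at 0.342, 0.355 and 0.289 TPM and at 91.9, 86.5 and 91.4 TPM. The log2 ratio was 8.88 ± 0.08 in THP-1 and -8.89 ± 0.07 in HEK293T. DOCK2 and DOCK1, exchange factors for RAC, had ratios of 9.04 ± 0.01 and -6.93 ± 0.05, with DOCK1 at 0 reads in THP-1. The plastins LCP1 and PLS3 had 7.83 ± 0.09 and -6.07 ± 0.03, and the kindlins FERMT3 and FERMT2, which activate integrins, 6.10 ± 0.03 and -6.92 ± 0.15. In other pairs the wider member differed less: RAC2 over RAC1 had ratios of 0.73 ± 0.05 and -9.43 ± 1.35, while RAC1 itself differed by a log2 fold change of 0.84. Among the 3 proteasome pairs, PSMB8, an immunoproteasome subunit, had a ratio to PSMB5, its constitutive partner, of 0.89 ± 0.07 in THP-1 and -9.30 ± 0.48 in HEK293T, and PSMB5 was 57.0 ± 1.40 against 164 ± 0.139 TPM (log2 fold change -1.09). The ratios of PSMB9 to PSMB6 and of PSMB10 to PSMB7 in THP-1 were -0.36 ± 0.05 and -0.07 ± 0.05, so those immunoproteasome subunits were not above their partners, against -6.60 ± 0.43 and -3.44 ± 0.15 in HEK293T.

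**Figure D3:**
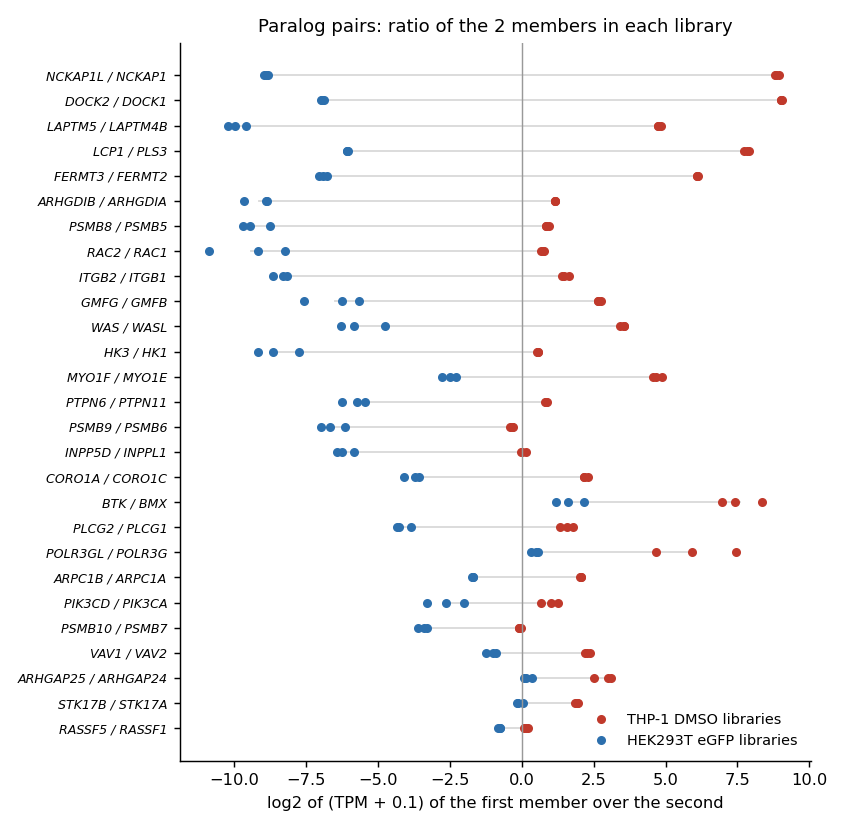
Log2 ratio of the first to the second member of each paralog pair, the 26 blood-cell pairs and POLR3GL with POLR3G, from TPM plus 0.1, with 1 point per library. All THP-1 points lie to the right of all HEK293T points in each of the 27 pairs, and the widest gap is for NCKAP1L over NCKAP1.

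POLR3GL and POLR3G, the alternative forms of 1 subunit of RNA polymerase III and the subject of the study, were set out in the same way. POLR3G, the form of stem cells and many tumours, stood at 0.735, 1.77 and 0.181 TPM in THP-1 and at 19.5, 20.9 and 22.6 TPM in HEK293T, a log2 fold change of -4.36 (SE 0.34; adjusted p = 6.1e-07, edgeR). The THP-1 libraries were widely spread, but all lay far below HEK293T. POLR3GL, the form of differentiated tissues, stood at 50.5, 47.9 and 48.5 TPM against 29.03, 29.5 and 28.3 TPM (log2 fold change 1.18, SE 0.04). The log2 ratio of POLR3GL to POLR3G was thus 6.01 ± 1.38 in THP-1 and 0.46 ± 0.13 in HEK293T, so HEK293T carried both forms at like levels and THP-1 almost only POLR3GL. MAF1, the repressor of the enzyme, stood at 57.3, 57.9 and 60.3 against 43.2, 41.4 and 43.9 TPM (log2 fold change 0.90, SE 0.03). With the control siRNA libraries at 25 nM in place of eGFP the fold change of MAF1 was 0.21, and that of POLR3G was -4.47. Among all 36 subunits and factors, 16 were higher in THP-1 and 19 in HEK293T, POLR3G alone passed 8-fold, and the median was -0.27. Over all genes tested 43.2% were higher in THP-1 and 45.2% in HEK293T, and 20.6% passed 8-fold. With library totals alone 9 of the 36 were higher in THP-1 and 22 in HEK293T, and the median was -0.64. The large catalytic subunits POLR3A and POLR3B were lower in THP-1, at 3.498 ± 0.107 against 17.4 ± 0.961 TPM and 4.18 ± 0.133 against 19.1 ± 0.711 TPM (log2 fold changes -1.85 and -1.74).

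**Figure D4:**
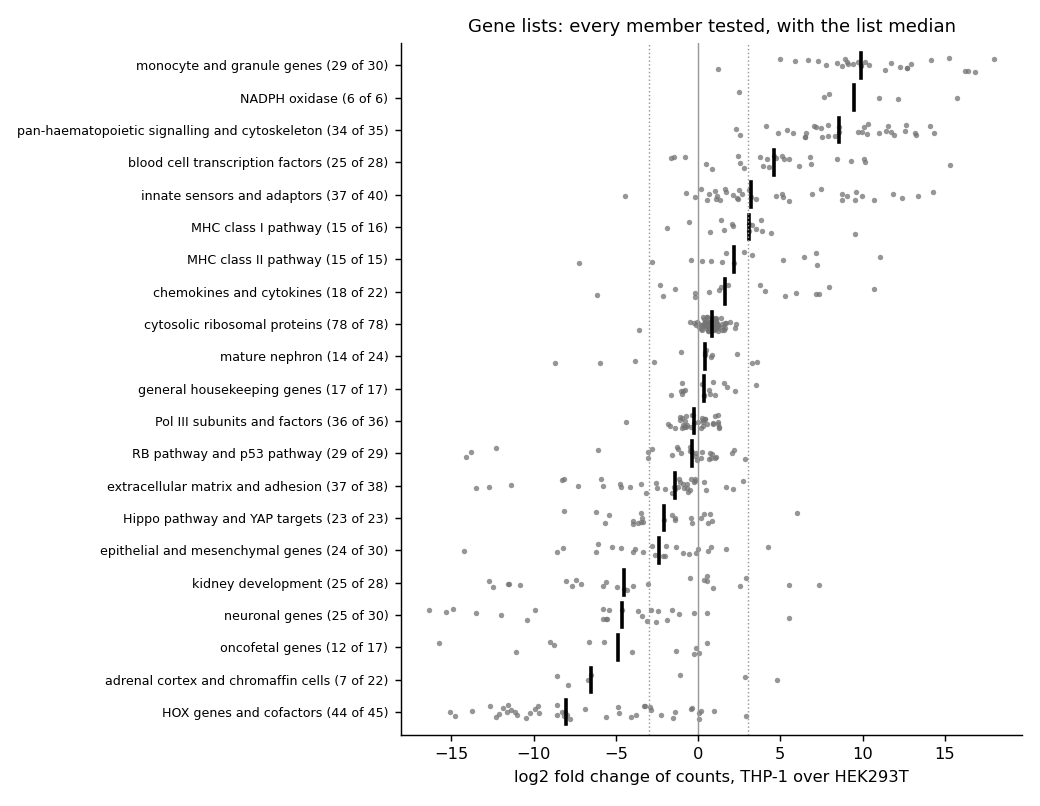
Log2 fold change of every tested member of each gene list, THP-1 over HEK293T, with the list median as a bar and the number tested of those listed beside each name; dotted lines mark 8-fold in each direction. The monocyte, pan-haematopoietic and NADPH oxidase lists lie to the right and the HOX, kidney development, neuronal and oncofetal lists to the left. The Pol III list lies around 0, and most ribosomal protein genes lie a little above 0.

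Antigen presentation was higher in THP-1 but present in part in HEK293T. Of 16 class I pathway genes 15 were tested, 13 were higher in THP-1, 8 by at least 8-fold, and the median was 3.07. With the control siRNA libraries at 200 and 25 nM in place of eGFP, 4 and 5 passed 8-fold, and with library totals alone 5 did. B2M was 2655, 2676 and 2548 TPM against 294, 298 and 300.2 TPM, so it was abundant in both lines. TAPBP, which loads peptides, stood at 135 ± 1.31 against 21.04 ± 0.150 TPM. The immunoproteasome subunits PSMB8 (106 ± 4.86 against 0.171 ± 0.0945 TPM) and PSMB10 (96.4 ± 4.16 against 17.2 ± 2.28 TPM) differed by log2 fold changes of 9.52 and 3.91. Of 15 class II genes, 12 were higher in THP-1, 6 by at least 8-fold, and the median was 2.17. CD74, the invariant chain, stood at 404, 409 and 409 against 1.53, 1.4996 and 1.70 TPM, HLA-DRB1 at 215 ± 11.3 against 8.10 ± 0.592 TPM, HLA-DRA at 146 ± 4.23 against 1.33 ± 0.121 TPM, and CTSS, the protease that trims the invariant chain, at 215 ± 21.7 against 0.0812 ± 0.111 TPM. HLA-DOA, part of an inhibitor of peptide loading, was higher in HEK293T (4.34 ± 0.530 against 0.0156 ± 0.00989 TPM; log2 fold change -7.27). CIITA, the master activator of class II genes, was low in both lines, at 2.38 ± 0.647 and 1.43 ± 0.133 TPM.

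Of 40 innate sensors and adaptors 37 were tested: 34 were higher in THP-1, 20 by at least 8-fold, with a median log2 fold change of 3.19. TLR2, a receptor for bacterial lipoproteins, stood at 119 ± 2.98 against 0.772 ± 0.171 TPM. TLR4, the receptor for lipopolysaccharide, stood at 20.7 ± 0.635 TPM with 1 read in HEK293T, and its partner LY96 at 8.56 ± 1.86 TPM with 0 reads. The inflammasome set was nearly absent from HEK293T. CASP1 stood at 40.7, 38.6 and 39.1 TPM against 0 reads, at least 918-fold higher. CASP4 was at 83.8 ± 1.30 TPM with 3 reads in HEK293T, the adaptor PYCARD at 91.2 ± 3.84 against 0.140 ± 0.0837 TPM, the sensor NLRP3 at 29.7 ± 0.868 against 0.0257 ± 0.0239 TPM, and the pore protein GSDMD at 47.2 ± 1.30 against 0.152 ± 0.0584 TPM. CGAS, which senses DNA in the cytosol, stood at 24.7 ± 0.272 against 0.193 ± 0.0174 TPM. The kinase TBK1, which is used by most cell types, differed less (log2 fold change 0.53). Those higher in HEK293T were TLR3 (log2 fold change -4.44, SE 0.43; 0.746 against 0.0431 TPM), IRAK1 (-0.72) and EIF2AK2 (-0.17). EIF2AK2, the kinase PKR, lost its call (adjusted p = 0.039, edgeR) when any THP-1 library or HEK293T replicate 1 or 2 was left out, with an adjusted p of 0.076 to 0.17 (edgeR).

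Of 22 chemokines and cytokines 18 were tested; 12 were higher in THP-1, 8 by at least 8-fold, and 4 in HEK293T, with a median of 1.61. Against the control siRNA libraries the median was 0.73 (200 nM) and 1.08 (25 nM). In unstimulated THP-1 cells the most abundant were VEGFA (88.0 TPM), CCL5 (59.6 ± 0.933 against 6.12 ± 0.339 TPM), TGFB1 (48.3 TPM) and CCL2 (33.3, 39.4 and 32.6 against 0.155, 0.214 and 0.163 TPM). IL18, a substrate of caspase-1, stood at 27.0 ± 0.361 TPM, whereas IL1B stood at 4.58 ± 0.194 TPM and TNF at 6.81 ± 0.532 TPM. IL6 had no read in THP-1. LIF was higher in HEK293T, at 2.16 ± 0.0267 against 0.0186 ± 0.01002 TPM.

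On the HEK293T side, the HOX genes gave the widest contrast. They code for homeobox factors that set position along the body axis, and their PBX and MEIS cofactors were listed with them. Of 45 genes 44 were tested; 39 were higher in HEK293T, 32 by at least 8-fold, and 3 in THP-1. The median log2 fold change was -8.02, or -4.85 with genes at 0 reads set to their bound, and 19 members had 0 reads in THP-1. The clusters did not behave alike. All tested genes of the HOXC and HOXD clusters passed the 8-fold call, led by HOXD13 (93.6 ± 3.999 TPM), HOXD10 (50.6 ± 1.98 TPM, at least 493-fold) and HOXC4 (42.3 ± 1.02 TPM, with 3 reads in THP-1). In the HOXB cluster HOXB9 stood at 63.2, 64.0 and 68.7 TPM against 0 reads, while HOXB4 differed by a log2 fold change of -0.38 and HOXB3 by -2.27. The HOXA cluster was split along its length. The genes from HOXA2 to HOXA7 had log2 fold changes of -4.80 to -2.93, whereas HOXA9 and HOXA10 stood at like levels in both lines. HOXA9, a factor that KMT2A fusions are known to keep on in leukaemia, had 67.8, 71.5 and 70.9 TPM in THP-1 and 90.0, 86.5 and 91.5 TPM in HEK293T, with a log2 fold change of 0.05 (SE 0.03; adjusted p = 0.15, edgeR), and HOXA10 had 0.19 (SE 0.03). For both genes the sign turned with the scaling: with library totals alone the values were -0.32 and -0.18. MEIS1, the partner of HOXA9 in many leukaemias, had 2 reads in THP-1 and 11.1 ± 1.13 TPM in HEK293T. PBX3 was higher in THP-1, at 102 ± 1.96 against 31.4 ± 1.46 TPM (log2 fold change 2.88).

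Genes of kidney development were mostly, but not all, higher in the kidney-derived line. Of 28 genes 25 were tested; 16 were higher in HEK293T, all 16 by at least 8-fold, and 7 in THP-1, with a median of -4.49. CITED1, a coactivator of nephron progenitors, stood at 215, 171 and 155 TPM against 2 reads in all of THP-1; the HEK293T libraries differed among themselves. FOXC1 stood at 86.9 ± 1.86 against 0.305 ± 0.0641 TPM and SALL1 at 21.6 ± 1.97 against 0.128 ± 0.105 TPM. GATA3 and LHX1, factors of the nephric duct and early tubule, stood at 19.4 ± 0.641 and 11.0 ± 0.982 TPM and were at least 249-fold and at least 110-fold lower in THP-1. PAX2 stood at 4.91 ± 0.479 TPM with 0 reads in THP-1. Its relative PAX8 went the other way, at 2.52, 2.95 and 3.29 TPM in THP-1 and 0.0347, 0.119 and 0.0111 TPM in HEK293T (log2 fold change 7.33, SE 0.23). RET, the receptor of the ureteric bud, was also higher in THP-1, at 16.2 ± 0.755 against 0.482 ± 0.201 TPM, while its co-receptor GFRA1 had 0 reads there and 3.29 TPM in HEK293T.

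Genes of the mature nephron had no common direction. Of 24 genes only 14 passed the filter. Of these, 5 were higher in THP-1, 2 by at least 8-fold, and 5 in HEK293T, 3 by at least 8-fold. Over all genes tested, 8.78% were at least 8-fold higher in THP-1 and 11.8% in HEK293T. The median of the list was 0.42, which was -0.41 against the scrambled oligonucleotide libraries. UMOD, SLC22A6, SLC22A8 and CDH16 had 0 reads in both lines. Those at least 8-fold higher in HEK293T included MME (log2 fold change -8.68) and LRP2, the endocytic receptor megalin (4.77 ± 0.471 against 0.0616 ± 0.0569 TPM). PODXL, of podocytes and other cells, stood at 15.1 ± 0.352 against 1.75 ± 0.0837 TPM, and GGT1 was higher in THP-1 (33.96 ± 1.81 against 3.65 ± 0.412 TPM).

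The adrenal list was mostly silent. Only 7 of the 22 genes listed were tested, of which 5 were higher in HEK293T and 2 in THP-1 (3 and 2 against control siRNA at 200 nM). The fitted median was -6.54, or -1.89 with genes at 0 reads set to their bound, and the fitted median was -2.45 against the scrambled oligonucleotide libraries. The steroid enzymes that were analysed and the catecholamine enzyme TH were at or near 0 in both lines. The steroid enzymes CYP11A1 and CYP11B2 were not analysed here, so their levels are not known. NR0B1 (2.40 against 0.0102 TPM), HAND2 (3.75 ± 0.373 TPM with 1 read in THP-1), CHGA and PNMT were higher in HEK293T, all at low levels, and STAR, which brings cholesterol into mitochondria, was higher in THP-1 at 4.35 ± 0.0574 against 0.207 ± 0.0331 TPM.

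Neuronal genes were higher in HEK293T and often abundant. Of 30 genes 25 were tested, 22 were higher in HEK293T, 16 by at least 8-fold, and the median was -4.63. Their summed level was 696 to 744 TPM in the HEK293T libraries and 25.7 to 27.2 TPM in THP-1. UCHL1, NEFM, TUBB2B and NEFL gave most of that sum. Others were DPYSL3 (31.5 against 0.419 TPM), NCAM1 (17.9 ± 1.01 against 0.427 ± 0.285 TPM) and SOX2 (16.5 ± 1.09 TPM with 2 reads in THP-1). Other members of the list were low, and STMN2, DCX and ELAVL4 were below 0.1 TPM in HEK293T. NEFH, the heavy neurofilament subunit, ran against its partners, at 6.64, 7.51 and 6.60 TPM in THP-1 and 0.178, 0.188 and 0.241 TPM in HEK293T (log2 fold change 5.54, SE 0.11).

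The attached and the suspended line differed in junction, matrix and Hippo genes. Of 30 epithelial and mesenchymal genes 24 were tested, 19 were higher in HEK293T, 10 by at least 8-fold, and the median was -2.40. The desmosome genes DSG2 (107 ± 2.42 against 4.93 ± 0.160 TPM) and DSP (36.4 ± 1.77 TPM with 1 read in THP-1) led, with the adhesion gene CDH2, N-cadherin, at 50.9, 51.6 and 54.5 against 1.63, 1.46 and 1.38 TPM. KRT18 and TJP1, a keratin and a tight-junction scaffold, stood at 29.6 ± 0.163 and 24.7 ± 0.828 TPM, with less than 0.1 TPM in THP-1. CDH1, E-cadherin, was low even in HEK293T (2.27 ± 0.0924 TPM). VIM, an intermediate filament of mesenchymal and blood cells, was abundant in both, at 331 ± 14.0 and 125 ± 2.503 TPM (log2 fold change -0.93, SE 0.03).

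Of 38 matrix and adhesion genes 37 were tested, 30 were higher in HEK293T, 13 by at least 8-fold, and the median was -1.41. SPARC, a matrix protein, stood at 87.7, 91.8 and 90.4 against 0.512, 0.232 and 0.149 TPM. The basement membrane chains LAMB1 and LAMB2 stood at 35.2 ± 0.872 and 50.2 ± 1.74 TPM against 0.161 TPM each, whereas their partner LAMC1 differed by a log2 fold change of only -1.41. COL4A5 and COL4A6, neighbours that share a promoter region, stood at 29.4 ± 1.44 and 9.82 ± 0.935 TPM with 3 and 0 reads in THP-1. The integrins ITGA5 and ITGA4, used by leukocytes to bind fibronectin, were higher in THP-1, at 87.2 ± 2.38 against 19.1 ± 1.44 TPM and 40.8 ± 2.09 against 13.8 ± 0.419 TPM.

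The Hippo pathway restrains the coactivators YAP and TAZ, which drive growth genes with the TEAD factors. Of its 23 genes, all tested, 17 were higher in HEK293T, 11 by at least 8-fold, and 6 in THP-1, with a median of -2.05. YAP1 stood at 39.8, 39.3 and 40.6 against 0.332, 0.429 and 0.378 TPM (log2 fold change -6.22, SE 0.05), and WWTR1, the gene of TAZ, at 27.6 ± 0.696 against 0.647 ± 0.0322 TPM. All 4 TEAD genes were lower in THP-1, as for TEAD4 (log2 fold change -3.45). AMOT, the scaffold angiomotin, was the most abundant, at 253 ± 7.09 against 0.646 ± 0.0775 TPM. The kinases of the pathway differed less: STK3 and STK4 had log2 fold changes of 0.83 and 0.70. AXL, listed as a YAP target and a receptor for the uptake of dead cells, was higher in THP-1, at 21.3 ± 0.559 against 0.432 ± 0.0622 TPM.

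Genes active in the fetus and again in tumours were higher in HEK293T. Of 17 such genes listed, 12 were tested, 10 were higher in HEK293T, 7 by at least 8-fold, and 1 in THP-1; the median was -4.86 (-3.99 with genes at 0 reads set to their bound). Besides LIN28B these were IGF2BP1, an RNA-binding protein (64.2 ± 1.96 against 0.245 ± 0.107 TPM; log2 fold change -11.10), HMGA2, a chromatin protein that let-7 represses (75.8 ± 1.21 against 1.39 ± 0.126 TPM), and IGF2BP3 (52.98 ± 1.74 against 2.48 ± 0.335 TPM). Their relative IGF2BP2 was the 1 member higher in THP-1, at 70.5 ± 2.07 against 64.9 ± 1.62 TPM (log2 fold change 0.53, SE 0.02). For IGF2BP1 the ratio of the TPM values was far smaller than the fitted fold change of counts, and the reason was not tested.

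The RB and p53 pathways control entry into the cell cycle and the response to damage. All 29 genes were tested: 11 were higher in THP-1, none by at least 8-fold (edgeR), and 18 in HEK293T, 6 by at least 8-fold, with a median of -0.40. Over all genes tested 43.2% were higher in THP-1 and 45.2% in HEK293T, 11.8% by at least 8-fold in HEK293T. Those 6 included CDKN2A, CDKN2B and MTAP, which lie side by side on chromosome 9. MTAP was listed with these genes but encodes a methionine salvage enzyme. The lean was smaller with other controls in place of eGFP: 14 against 14 with a median of -0.07 for control siRNA at 200 nM, 12 against 15 with -0.27 for control siRNA at 25 nM, and 12 against 14 with -0.17 for scrambled oligonucleotide, where 1 gene was at least 8-fold higher in THP-1. CDKN2A, which encodes the CDK4 inhibitor p16 and, in another reading frame, ARF, stood at 201, 189 and 202 TPM in HEK293T and had 0 reads in THP-1, at least 523-fold lower. Its neighbour CDKN2B stood at 8.09 ± 0.260 TPM against 0 reads. The D-type cyclins were exchanged. CCND2 stood at 57.8 ± 1.37 TPM with 1 read in THP-1 and CCND1 at 40.3 ± 0.264 against 4.06 ± 0.238 TPM, whereas CCND3 stood at 155, 158 and 158 TPM in THP-1 and 30.6, 30.1 and 30.6 TPM in HEK293T (log2 fold change 2.83, SE 0.03). CDKN2C, another CDK4 and CDK6 inhibitor, was higher in THP-1, at 216 ± 7.04 against 73.8 ± 0.765 TPM. FAS, a death receptor, had a log2 fold change of -3.07 (SE 0.60) and BBC3, which encodes PUMA, one of -0.51. RB1 stood at 42.03 ± 0.658 against 31.5 ± 0.828 TPM (0.85, SE 0.03).

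Genes used by all cells were not level. Of 78 cytosolic ribosomal protein genes, all tested, 71 were higher in THP-1 and 4 in HEK293T, with a median log2 fold change of 0.84. With library totals alone the counts were 60 and 11 and the median 0.47. Against the control siRNA libraries at 25 nM they were 48 and 14 with a median of 0.24. RPS18 stood at 8317, 8153 and 7861 against 3394, 3375 and 3504 TPM (log2 fold change 1.68, SE 0.04) and RPL30 was the highest of the list by fold (2.32, SE 0.03). The 4 lower ones were RPL9, whose reads are split with a copy as described, RPS4X (-0.51), RPL26 (-0.28) and RPL39 (-0.15). Among 17 general housekeeping genes, 11 were higher in THP-1 and 6 in HEK293T, with a median of 0.38 that was 0.01 with library totals alone. Against the control siRNA libraries at 25 nM they were 7 and 7 with a median of 0.11. ACTB stood at 4382 ± 109 against 1302 ± 36.5 TPM (log2 fold change 2.23) and EEF1A1 at 7440 ± 423 against 3032 ± 175 TPM (1.74), while HPRT1 stood at 62.2 ± 2.42 against 266 ± 9.22 TPM (-1.64).

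Most markers of other cells, but not all, were under 1 TPM in both lines. This held for 9 of 14 lymphocyte markers and 8 of 12 erythroid and megakaryocyte markers. It also held for 9 of 12 markers of endothelium and fibroblasts. The summed level of 14 lymphocyte markers was 33.1 to 37.4 TPM in THP-1 and 4.45 to 5.63 TPM in HEK293T. Of the 8 tested, 4 were higher in THP-1, 3 by at least 8-fold, and 1 in HEK293T. Over all genes tested 8.78% were at least 8-fold higher in THP-1. NKG7, a granule gene of cytotoxic cells, made up most of the THP-1 sum at 25.6 TPM. TRAC stood at 3.20 ± 0.492 TPM with 0 reads in HEK293T, while MS4A1 and CD8B had 0 reads in both lines and CD3E was below 0.1 TPM in both. The sum over 12 erythroid and megakaryocyte markers was 4.14 to 4.497 TPM in THP-1 and 20.9 to 24.9 TPM in HEK293T, where ITGA2B (11.3 TPM) and HBA1 (8.77 ± 1.98 TPM) led; HBG1 and HBG2 had 0 reads in both. The sum over 12 markers of endothelium and fibroblasts was 5.54 to 7.26 TPM in THP-1 and 17.9 to 19.2 TPM in HEK293T, with LUM at 4.63 ± 0.663 TPM in HEK293T and 0 reads in THP-1. In bulk libraries, fewer cells of a type and less RNA per cell cannot be told apart.

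Differences also went by chromosome. Over 11252 autosomal genes that averaged 5 CPM or more the median log2 fold change was 0.05, and each autosome was set against it. Genes of chromosome 10 had a median 1.18 below it (a difference of -1.18 over 428 genes), with only 17.1% of them above the autosomal median. Genes of chromosome 8 had a median 0.78 above it (404 genes, 72.8% above). The other 20 autosomes lay between -0.34 and 0.36. The SD of a chromosome's median over the THP-1 libraries was 0.0165 for chromosome 10 and 0.0208 for chromosome 8. Many genes named above lie there: GATA3, PAX2, GFRA1, ABLIM1 and DOCK1 on chromosome 10 were lower in THP-1, and CA2 and RPL30 on chromosome 8 were higher, while RET, on chromosome 10, was higher in THP-1, and NEFM and NEFL, on chromosome 8, had 0 reads in THP-1. DNA copy number was not measured in these libraries, and its part in these shifts was not tested.

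A scan along the chromosomes, added after the data had been seen, took the median log2 fold change over each 7 neighbouring genes, and found 32 runs of windows with a median of at least 8-fold in each direction. The longest HEK293T runs were the HOXC and HOXB clusters, and the longest THP-1 run, of 17 windows, lay around CAP1 on chromosome 1. From PPIE to NFYC (chr1:39692182-40771603, hg38, 1.08 Mb) all 18 tested genes were higher in THP-1, 15 of them by at least 8-fold, with log2 fold changes of 1.91 to 8.65 and a median of 4.40. Over all genes tested 8.78% were at least 8-fold higher in THP-1. The run itself went from TRIT1 to CITED4. The stretch was picked for its fold changes, so these counts only describe it and test nothing. The genes are not of 1 function: COL9A2, a cartilage collagen chain, stood at 658, 664 and 664 against 3.61, 3.14 and 3.51 TPM, SMAP2, a trafficking factor, at 795 ± 13.0 against 33.8 ± 1.04 TPM, NFYC, a subunit of the CCAAT-binding factor, at 782 ± 10.9 against 39.9 ± 0.665 TPM, and EXO5, a nuclease, at 240 ± 0.772 against 5.12 ± 0.0746 TPM. CAP1 and PPT1, adjacent here and overlapping at their ends, took 1.90 to 2.03% of the reads matched to genes in THP-1 and 0.036% in HEK293T. The genes beside this stretch were mixed. HPCAL4, next to PPIE, had a log2 fold change of -5.70, PABPC4 2.36 and NDUFS5 -0.69, while on the other side CTPS1 had 1.01 and CITED4 6.995, with HIVEP3 and PPCS farther out at 3.82 and 4.75. The fold of CAP1 was 6.36, 6.15 and 5.97 on the log2 scale against the other 3 HEK293T control groups.

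The next longest THP-1 runs, of 13 and 8 windows, ran from KLK1 to SPACA6 with SIGLEC genes on chromosome 19 and from GIMAP8 to AOC1 on chromosome 7. A shorter HEK293T run, of 4 windows, held CDKN2A on chromosome 9 and is described because CDKN2A is in the lists. KLHL9 (chr9:21329671-21335380), CDKN2A (chr9:21967753-21995301) and CDKN2B (chr9:22002903-22009363) had 14790, 6084 and 2114 reads in HEK293T and 0 in THP-1. MTAP, the methionine salvage enzyme between KLHL9 and CDKN2A, had 13798 reads in HEK293T and 158 in THP-1 (log2 fold change -6.08, SE 0.15). The genes on the far side did not share this: HACD4 stood at 25.9, 27.1 and 25.1 TPM in THP-1 against 0.120, 0.101 and 0.210 TPM in HEK293T (8.56, SE 0.09), FOCAD had -0.72 and MLLT3, the partner of the KMT2A fusion, -2.02. On the other side ELAVL2 had -2.85 and TUSC1 0.50.

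**Figure D5:**
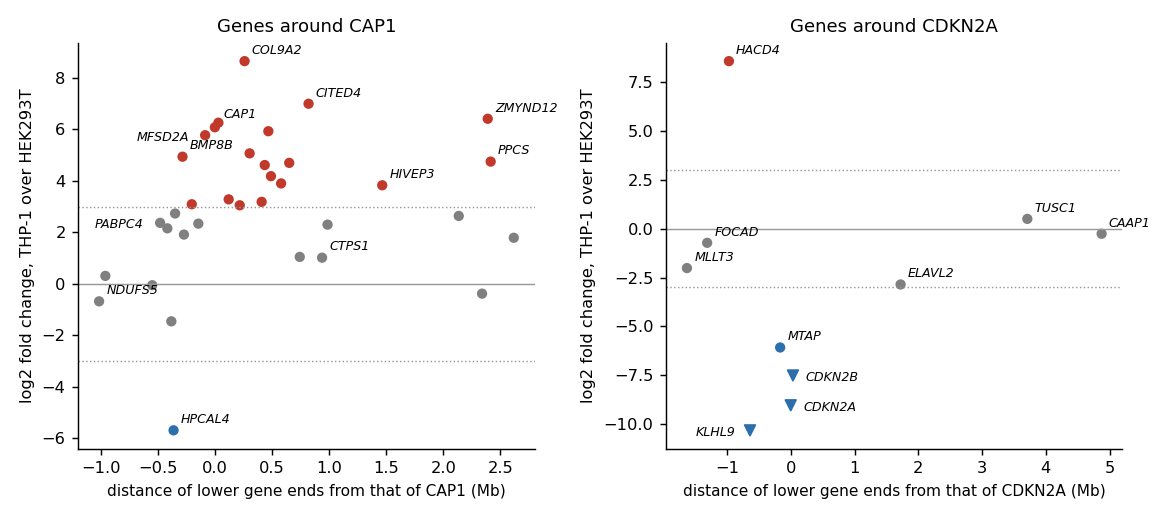
Log2 fold change, THP-1 over HEK293T, of tested genes around CAP1 (left) and CDKN2A (right), by the distance in megabases between lower gene ends. Points at least 8-fold apart are coloured and triangles mark genes with 0 reads in THP-1, drawn at their bound; the genes around CAP1 lie above 0 in a block, and KLHL9, MTAP, CDKN2A and CDKN2B lie far below it.

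The other HEK293T controls gave like values for most of what has been named. Because all of these comparisons share the THP-1 libraries, the values are only set side by side. With scrambled oligonucleotide, control siRNA at 200 nM and control siRNA at 25 nM in that order, the log2 fold changes were 6.67, 7.62 and 7.93 for CD14, 10.85, 11.60 and 11.92 for LYZ, and 8.85, 10.27 and 10.99 for SPI1. They were 11.74, 12.00 and 12.69 for PTPRC and -4.11, -3.72 and -3.57 for HOXA5. The HEK293T groups differed among themselves for VIM, at 364, 367, 515 and 632 CPM with eGFP, scrambled oligonucleotide and control siRNA at 200 and 25 nM, and for NEFM, at 290, 283, 335 and 671 CPM. CITED1 stood at 71.9, 53.9, 39.3 and 51.8 CPM in the same order, and HOXA9 at 75.5, 85.3, 95.4 and 84.3 CPM beside 79.4 CPM in THP-1. Of the genes at least 8-fold higher in THP-1 there were 1372, 1434 and 1498 against these 3 groups, and of those higher in HEK293T 2032, 2022 and 2028.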

How the data were processed

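Poly(A) RNA was sequenced from stranded libraries with reads of 151 cycles from both ends, per the labels' protocols. The authors deposited a transcript table per library with an estimated count and a TPM value per transcript; per the submitters' processing notes the tools were bcl2fastq 2.20, Trim Galore, Salmon and DESeq2 with build hg38, while the remaining versions and the transcript set, not given in the sources used here, are unknown. The estimated counts of a gene's transcripts were added up and then rounded; 168869 of 194142 transcripts were matched to genes. Genes passed edgeR 4.0.16's filterByExpr, TMM scaling and the quasi-likelihood F-test (R 4.3.3) with p-values adjusted by Benjamini-Hochberg across the tested genes; the SE is the log2 fold change over the square root of F. The common biological coefficient of variation was 0.0474. Intervals are exact at 95% and, like the floor of 3 reads per library, cover counting error only. Named genes were the markers, POLR3G, POLR3GL and MAF1, the 10 largest rises and falls, the 10 highest levels in each line, list members, pair members and neighbours; others named were chosen after their values were seen. The members and lists were chosen with earlier results of these data known. STING1, CYP11A1, CYP11B2, CLDN7, H19, MEG3 and HBB, and the CTTN pair, were not analysed here, and some list members are not reported here. Alternatives used DESeq2 1.42.0, other scalings, filters and HEK293T controls. Assignment by the primary assembly only, and the scan of neighbouring genes, were added after seeing the data. Code was tested on simulated data.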

Additional observations from a re-analysis of the deposited data

Results flagged for a closer look

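Transcripts that could not be matched to a gene were left out of every comparison, but some were present in 1 line only. Of 25273 unmatched transcripts, 84 stood at 5 CPM or more in all 3 THP-1 libraries with 0 reads in all 3 HEK293T libraries, and 64 stood at 5 CPM or more in all 3 HEK293T libraries with 0 reads in THP-1. What these transcripts are was not tested. In addition, 976 stood at 5 CPM or more in all 6 libraries.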

How the results depend on the processing

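A test against a fold change of 2 (edgeR's glmTreat) called 7557 genes, 3500 higher in THP-1 and 4057 in HEK293T. With only genes at a mean of at least 5 CPM, 1759 were at least 8-fold apart, 770 higher in THP-1 and 989 in HEK293T. The difference of the chromosome 10 median from that of all autosomes was -1.12 over all tested genes. It was -1.15, -1.24 and -1.26 with scrambled oligonucleotide, control siRNA at 200 nM and control siRNA at 25 nM in place of eGFP. The same difference for chromosome 8 was 0.65 over all tested genes and 0.75 and 0.69 with the 2 siRNA groups. HOXA9 reversed to -0.32 and -0.18 with the siRNA groups (200 and 25 nM), -0.073 with all 4 HEK293T groups, -0.32 with library totals and -0.14 with upper-quartile factors. HOXA10 reversed to -0.040 and -0.197 with the siRNA groups and -0.18 with library totals, and CEBPB to -0.045 with scrambled oligonucleotide and -0.039 with siRNA at 25 nM. Without 1 library at a time 14397 to 14693 genes were called. The replicate block called 14348 genes, 1443 and 1949 of them at least 8-fold higher in THP-1 and HEK293T. Same-numbered libraries did not deviate together (correlations 0.005, 0.009 and -0.015). That gave no sign of pairing by number, but a comparison across different lines cannot exclude it. DESeq2 called 14038, a fit with length offsets 14142, primary-assembly transcripts alone 14185 and no filter 15839. Of 4955 values of the single genes named, under all alternatives, 4909 kept their direction and their side of the threshold. With 3 libraries a group, values rest on few replicates, and levels under 0.1 TPM rest on a few reads.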
